A study of Brachypodium distachyon with 89 samples.

Results

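Bradi5g11750 is the *Brachypodium distachyon* gene whose best Arabidopsis match is the zeaxanthin epoxidase gene ZEP, also called ABA1, and it was taken by its identifier as 1 gene of the 24467 in the deposited table. No other gene of the table had the same match. The gene had been chosen by the study on its measured levels in submerged and control plants over the day within each ecotype, so those levels and their differences are given below as a description without a test. Only the contrast of ZEP between the ecotypes under normal growth was tested. It is not fully independent of the choice, since normal growth levels were among those the study showed for the gene. The study also named ZEP among the transcripts that led it to compare the ecotypes under submergence.

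Zeaxanthin epoxidase works in the chloroplast. It adds epoxide groups to zeaxanthin and so turns it, through antheraxanthin, into violaxanthin, while violaxanthin de-epoxidase (VDE) runs the same steps backwards in strong light. Together they form the xanthophyll cycle, which sets how much absorbed light a leaf sheds as heat. Violaxanthin and the neoxanthin made from it are also the starting material of the hormone abscisic acid (ABA), and Arabidopsis plants without ZEP are short of ABA.

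RNA was sequenced from the aboveground green tissue of 14-day-old plants of the ecotypes Bd21 and Bd21-3, which the study describes as sensitive and tolerant to submergence. Plants grew under 16 h of light and 8 h of dark and were kept under normal growth (NG, 150 μE m−2 s−1), under low light in an empty tank (LL) or submerged under 30 cm of water (S, 70 μE m−2 s−1), with LL described as having the light level of S. Libraries were collected at Zeitgeber time (ZT) 0, 8, 16, 20 and 24 h, counted from lights on, so that ZT16 was dusk, ZT20 midnight and ZT24 the next dawn, and submergence had begun before the night that preceded ZT0. Each library came from a pool of 5 plants, so p-values measure the spread between pools. The study states that plants collected at the same time had shared a tank, and it describes tanks for S and LL but not for NG. In S over LL, effects of tank and of treatment cannot be told apart. The 30 groups held 3 libraries each, except Bd21 LL at ZT24, which held 2. Neither ecotype carried a transgene.

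Values are the deposited CPM, whole read counts per gene scaled to library size by the submitters. The 89 libraries held 3896851 to 16044727 reads (median 9037308), and ZEP took 147 to 6788 of them per library (median 956). The labelled tissue was checked with 11 green leaf genes (RBCS, RCA, LHCB), all detected, whose summed level was 25140 to 82700 CPM in NG, 16430 to 53600 in LL and 1250 to 21740 in S. The 2 matched root genes summed to at most 12.3 CPM in any library. The 7 low oxygen genes (ADH1, PDC, PCO matches) summed to 1827 CPM or more in every S library and to 230.4 or less in every LL library. Among NG libraries, replicate 3 of Bd21-3 at ZT8 stood apart with 1643 CPM of these genes, against at most 210.4 in the others, and its ZEP level was 541.6 CPM. In green tissue as a whole, fewer cells of a type and less RNA per cell cannot be told apart.

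In control plants ZEP was a midday gene. Its zenith, the ZT with the highest mean, was ZT8 in NG and in LL in both ecotypes, and its lowest level was ZT20. Under submergence the zenith stood at ZT16 and the lowest level at ZT0 in both ecotypes. The level at the zenith was 18.1-fold the lowest mean in Bd21 NG and 23.6-fold in Bd21 LL, against 7.72-fold in Bd21 S. In Bd21-3 the same ratio was 10 in NG, 15.8 in LL and 3.6 in S. In all 6 day courses the libraries at the zenith did not overlap those at the ZT with the second highest mean.

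**Figure D1:**
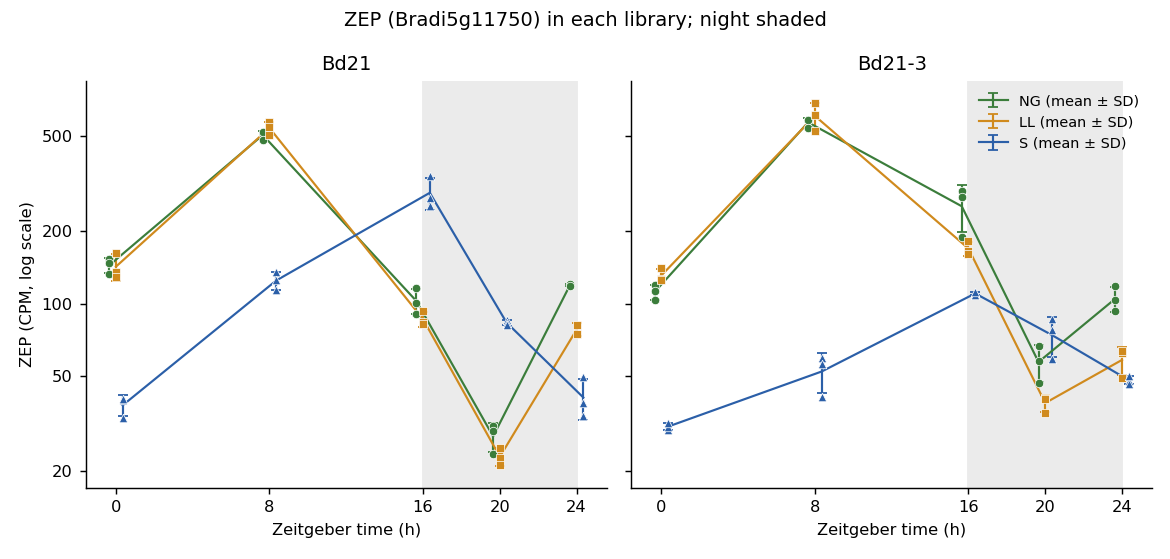
ZEP level in CPM on a log axis against Zeitgeber time in hours, for Bd21 (left) and Bd21-3 (right); points are libraries, lines join group means, bars are the SD and the night is shaded. NG and LL libraries are highest at ZT8 (483.5 to 687.5 CPM) and S libraries at ZT16 (254.7 to 339.9 CPM in Bd21 and 108.8 to 111.3 CPM in Bd21-3).

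At ZT0, after the first night, ZEP had 153.4, 132.8 and 147.0 CPM in the Bd21 NG libraries (replicates 1, 2 and 3). The LL libraries of Bd21 had 136.0, 128.8 and 163.0 CPM. Submerged Bd21 had 39.4, 40.1 and 33.2 CPM. The controls overlapped and S lay below both, with a log2 fold change (log2FC) of S over LL of −1.89 (standard error 0.14), where log2FC is on the scale of log2(CPM + 1). Bd21-3 NG had 119.2, 112.7 and 103.6 CPM at this ZT. Bd21-3 LL had 127.1, 125.1 and 140.8 CPM. Bd21-3 S had 29.5, 30.6 and 31.7 CPM, below every control library by a log2FC of −2.06 (standard error 0.14) against LL.

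ZT8 was the zenith of the controls and the ZT with the deepest gap in S. In Bd21, NG libraries had 513.0, 521.0 and 483.5 CPM. The LL libraries had 505.8, 573.0 and 544.6 CPM. Those of S had 135.4, 125.4 and 113.6 CPM, all well under the controls, at a log2FC over LL of −2.11 (standard error 0.14). In Bd21-3, NG libraries had 587.1, 585.0 and 541.6 CPM. The corresponding LL libraries had 525.9, 610.2 and 687.5 CPM. Submerged Bd21-3 had 59.2, 56.1 and 40.8 CPM, so that the LL mean was 11.7-fold the S mean (log2FC −3.53, standard error 0.14), the furthest apart of the 10 pairs of S and LL groups.

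At dusk, ZT16, the ecotypes parted. Bd21 NG had 90.9, 100.9 and 115.6 CPM of ZEP. Bd21 LL had 83.6, 81.8 and 92.7 CPM. Bd21 S had 339.9, 275.6 and 254.7 CPM, above every control library, with a mean 3.37-fold that of LL (log2FC 1.73, standard error 0.14). In Bd21-3 the NG libraries had 295.4, 190.0 and 279.3 CPM, replicate 2 being the low one. LL had 166.2, 182.4 and 160.6 CPM. S had 110.5, 108.8 and 111.3 CPM, below every control library of Bd21-3 (log2FC over LL −0.62, standard error 0.14). The difference between the ecotypes in log2FC of S over LL was 2.35 (standard error 0.19) at this ZT, and it was not tested. The green leaf genes summed to 11580 to 21740 CPM in Bd21 S at ZT16 and to 7439 to 8476 in Bd21-3 S, against 20870 to 32550 in LL of Bd21 and 21400 to 32520 in LL of Bd21-3. In Bd21 ZEP was thus higher and the green leaf sum mostly lower in S than in LL, and their part in the difference between ecotypes was not tested.

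At midnight, ZT20, the controls were at their lowest and S was above LL in both ecotypes. Bd21 NG had 30.7, 29.4 and 23.6 CPM. Bd21 LL had 24.9, 22.7 and 21.1 CPM. Bd21 S had 85.1, 83.3 and 81.5 CPM, a mean 3.63-fold that of LL (log2FC 1.82, standard error 0.14), with no overlap. Bd21-3 NG had 57.8, 46.8 and 66.4 CPM of ZEP. Bd21-3 LL had 34.8, 40.5 and 40.0 CPM. Bd21-3 S had 58.5, 77.2 and 85.9 CPM, which did not overlap LL (log2FC 0.91, standard error 0.14) but did overlap NG.

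At the next dawn, ZT24, S no longer exceeded LL in either ecotype. In Bd21 the NG libraries had 119.2, 120.5 and 118.2 CPM. The 2 LL libraries had 74.4 and 81.3 CPM. S had 49.2, 38.3 and 34.0 CPM, below both controls (log2FC over LL −0.94, standard error 0.15). Bd21-3 NG had 93.1, 118.0 and 103.4 CPM at ZT24. Bd21-3 LL followed with 62.2, 63.3 and 49.0 CPM. Bd21-3 S had 47.5, 46.2 and 50.0 CPM and overlapped LL, the only overlap of S and LL among the 10 pairs (log2FC −0.27, standard error 0.14).

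The 2 dawns of the series can be set side by side. In NG the ZEP mean at ZT24 was 0.826 of that at ZT0 in Bd21 and 0.937 in Bd21-3. In LL the ratio was 0.546 in Bd21 and 0.444 in Bd21-3. In S it was 1.08 in Bd21 and 1.56 in Bd21-3, from a ZT0 level that was already low. The dawns followed different nights and came from different plants, and these ratios were not tested.

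Low light without water left the midday zenith of ZEP where it was. At ZT0 and ZT8 the log2FC of LL over NG lay between −0.02 and 0.23 over both ecotypes, and the groups overlapped except for Bd21-3 at ZT0. Later in the day LL was the lower group. In Bd21 the log2FC of LL over NG was −0.24 at ZT16, −0.27 at ZT20 and −0.61 at ZT24, the last without overlap. In Bd21-3 it was −0.56, −0.55 and −0.84 at the same ZTs, and none of these overlapped. Standard errors were 0.14 or 0.15. Because S over LL and LL over NG share the LL libraries, S was also set against NG. In Bd21 the S over NG values ran −1.92, −2.01, 1.49, 1.55 and −1.55 over the 5 ZTs, and the Bd21-3 values ran −1.83, −3.45, −1.18, 0.36 and −1.11. Only the Bd21-3 libraries at ZT20 overlapped in this contrast.

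**Figure D2:**
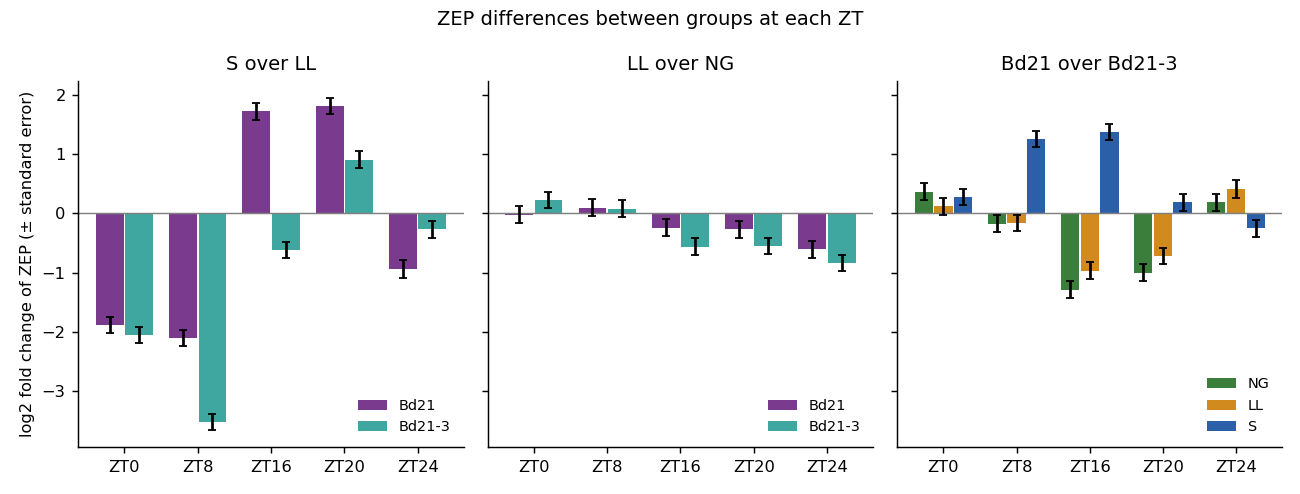
Log2 fold change of ZEP at each ZT for S over LL (left), LL over NG (middle) and Bd21 over Bd21-3 (right); bars start at 0 and error lines are the standard error. S over LL runs from −3.53 (Bd21-3, ZT8) to 1.82 (Bd21, ZT20), LL over NG stays between −0.84 and 0.23, and the ecotype difference at ZT16 is 1.38 in S, −0.97 in LL and −1.29 in NG.

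The ecotypes were compared under normal growth, where the levels of S had no part. The NG levels were among those on which ZEP was chosen, so the p-values are to be read with that limit. Bd21 had the lower ZEP level at dusk and midnight. At ZT16 the log2FC of Bd21 over Bd21-3 was −1.29 (standard error 0.14, limma adjusted p = 7.6e-12) and the Bd21-3 mean was 2.49-fold the Bd21 mean. The contrast was −1.0 at ZT20, where the Bd21-3 mean was 2.04-fold that of Bd21 (standard error 0.14, limma adjusted p = 2.7e-08). The values at ZT0, ZT8 and ZT24 were 0.37, −0.17 and 0.19, with limma adjusted p of 0.087, 0.7 and 0.32, and did not pass. The libraries of the ecotypes did not overlap at any of the 5 ZTs, by the smallest gap at ZT24 (118.2 CPM against 118.0 CPM). A gene was called different at an adjusted p under 5e-06, an absolute log2FC of 1.5 or more and 15 CPM in either group. ZEP passed the limit on p at ZT16 and ZT20 but not the limit on fold, so it was not called at any ZT. Of the 24109 genes tested, 0.668, 0.46, 0.639, 0.639 and 0.456% were called from ZT0 to ZT24. Without replicate 2 of Bd21-3 NG at ZT16, its lowest library, the log2FC there was −1.49. Without replicate 3 of Bd21-3 NG at ZT8, the library with the high low oxygen genes, the log2FC at ZT8 was −0.21.

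In LL the same contrast, given as a description, ran 0.12, −0.16, −0.97, −0.72 and 0.42 from ZT0 to ZT24, with overlap at ZT0 and ZT8 only. In S it ran 0.28, 1.26, 1.38, 0.19 and −0.25. Submerged Bd21 had 2.4-fold the mean of submerged Bd21-3 at ZT8 and 2.63-fold at ZT16, with no overlap at either, and the ecotypes overlapped at ZT20 and ZT24. At dusk the ecotypes thus stood in opposite order with and without water.

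Over all 30 groups the ZEP mean ranged 26.5-fold, from 22.9 ± 1.93 CPM in Bd21 LL at ZT20 (SD, n = 3) to 607.9 ± 80.8 CPM in Bd21-3 LL at ZT8 (SD, n = 3). The 4 control groups at ZT8 came first, from 505.9 ± 19.7 CPM upwards. Bd21 S at ZT16 came next, with 290.1 ± 44.4 CPM (SD, n = 3), and overlapped Bd21-3 NG at ZT16, its lower neighbour, with 254.9 ± 56.8 CPM (SD, n = 3). Bd21-3 S at ZT16 stood in the middle of the order with 110.2 ± 1.27 CPM (SD, n = 3). The lowest 5 groups were Bd21-3 LL at ZT20, Bd21 S and Bd21-3 S at ZT0, and Bd21 NG and Bd21 LL at ZT20. Of the 29 pairs of neighbours in the order, 24 had libraries that overlapped. Overlap of 2 or 3 libraries is a description and not a test, and the groups were sorted by these same means. No overlap was seen in 5 places. These lay below Bd21 NG at ZT8, Bd21-3 NG and Bd21-3 LL at ZT16, and Bd21 S at ZT20 and ZT0. The step in the means below Bd21 S at ZT20 was only 1.07-fold. The SD was 0.989 to 22.3% of the mean (median 8.3%).

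**Figure D3:**
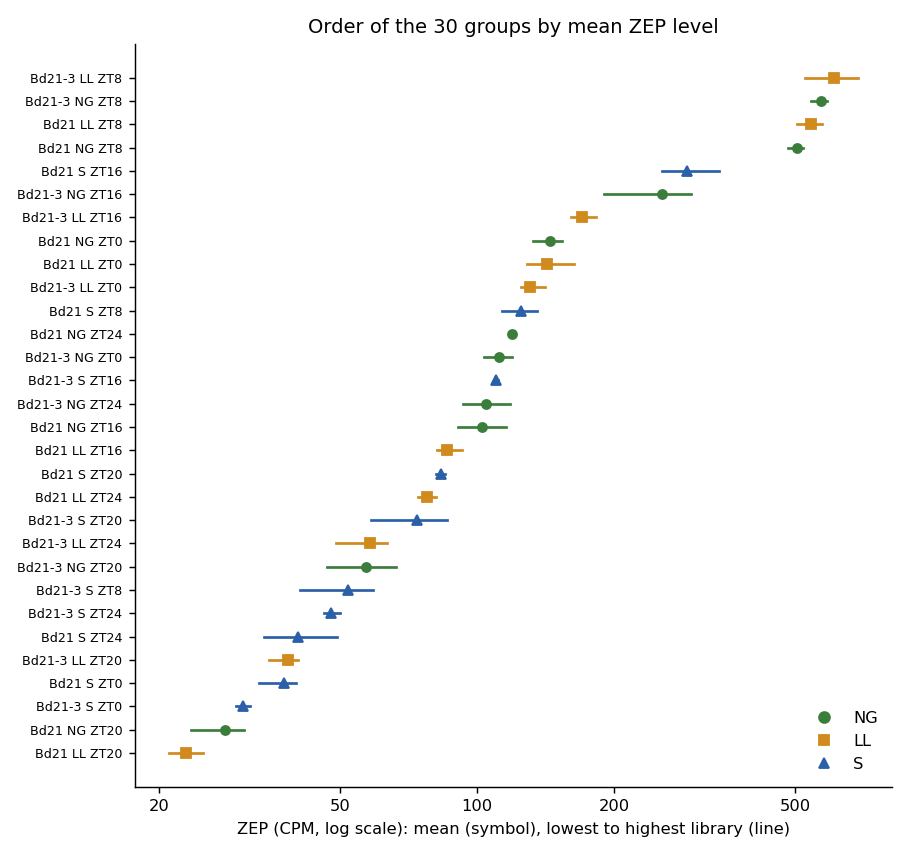
The 30 groups in order of their mean ZEP level (CPM, log axis); symbols are means and lines run from the lowest to the highest library. The 4 control groups at ZT8 lie above 483.5 CPM and apart from all others, and neighbours overlap in 24 of 29 places.

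ZEP sits in the middle of a pathway that runs from isoprenoid supply through carotenoids to ABA and its receptors. Genes of 10 such lists were matched through Arabidopsis, and their roles below are those known from Arabidopsis. The lists held 82 genes besides ZEP, of which 80 were tested and 54 reached 15 CPM in some group. In S over LL at 1 or more ZT, 7 of the 80 rose in Bd21 (8.75%, beside 7.03% of all genes tested) and 8 fell (10%, beside 8.42%). In Bd21-3, 7 rose (8.75%, beside 7.5%) and 19 fell (23.8%, beside 9.95%). The first 3 shares lay near those of all genes. The median log2FC of S over LL over the listed genes was −0.20 to −0.35 at each ZT in Bd21-3, where that of all genes was −0.12 to 0.01. In Bd21 it was −0.01 to −0.24, where that of all genes was −0.08 to 0.02. The CPM limit removes genes that are low in both groups, so these counts speak of well expressed members. The counts rest on the spread shared by all groups. Fitted on the groups of each comparison alone, 1 gene rose and 1 fell in Bd21, and 0 rose and 1 fell in Bd21-3 by limma. At an unadjusted p under 0.05 in those fits the counts were 7, 11, 9 and 21, and edgeR over all groups called 7, 9, 8 and 18. Shares of all genes are not given for these other settings, so whether their counts exceed such shares was not tested.

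Of the steps that supply isoprenoids in the plastid, 12 genes were tested. In Bd21, 1 fell and none rose, where 8.42% of all genes fell and 7.03% rose at 1 or more ZT. In Bd21-3, 5 fell and none rose, where 9.95% of all genes fell and 7.5% rose. The Bd21 count of fallen genes was near the share of all genes. HDS (Bradi3g48080), a late enzyme of the plastid route, went at ZT8 from 1182 ± 82.6 CPM in LL to 219.0 ± 54.8 CPM in submerged Bd21-3 (SD, n = 3), without overlap (log2FC −2.45, limma adjusted p = 1.1e-19). In Bd21 at the same ZT its log2FC was −0.99, under the fold limit. GGPS11 (Bradi1g23510), which makes the precursor of the first carotenoid, fell at 2 ZTs in Bd21 and at 4 in Bd21-3, most at ZT20 in Bd21-3 (log2FC −2.30, limma adjusted p = 2.2e-16). DXS (Bradi2g25550), the entry enzyme, fell in Bd21-3 at ZT20 and ZT24 by 2.24 and 2.21 on the log2 scale. ISPF (Bradi3g51750) fell in Bd21-3 at ZT0 and ZT8.

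Among the 14 genes of carotenoid synthesis, 2 rose and 3 fell in Bd21, and 2 rose and 7 fell in Bd21-3. Of all genes, 7.03% rose and 8.42% fell in Bd21 at 1 or more ZT, and 7.5% and 9.95% in Bd21-3. Both well expressed copies of PSY, the enzyme that commits isoprenoids to carotenoids, fell. Bradi1g29590 went at ZT0 from 410.0 ± 18.4 CPM in LL to 53.2 ± 3.59 CPM in submerged Bd21-3 (SD, n = 3; log2FC −2.92, limma adjusted p = 1.8e-25) and from 409.6 ± 11.5 to 100.4 ± 1.55 CPM in Bd21 (log2FC −2.02). Bradi4g01100 fell at ZT0, ZT20 and ZT24 in both ecotypes, yet at ZT8 it was higher in S in Bd21 (log2FC 1.27, under the fold limit) and near 0 in Bd21-3 (0.05). ZDS (Bradi1g54390), a desaturase, fell at ZT8 and ZT16 in Bd21-3. The genes that rose act on the rings of carotenoids. CYP97A3 (Bradi3g55450), a ring hydroxylase, was at 1840 ± 613 CPM in S and 367.9 ± 57.5 in LL at ZT16 in Bd21 and at 2013 ± 247 and 406.0 ± 45.6 CPM in Bd21-3 (SD, n = 3), and rose at ZT16, ZT20 and ZT24 in both.

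BCH1, the β-carotene hydroxylase, makes zeaxanthin, the substrate of ZEP, and Bradi5g19130 is its more abundant match. It rose at ZT8, from 22.9 ± 9.55 CPM in LL to 105.8 ± 32.0 in submerged Bd21 (SD, n = 3; log2FC 2.21, limma adjusted p = 2.5e-07). The gene also rose in Bd21-3, at ZT8 (log2FC 2.13) and at ZT16 (2.36), ZTs at which ZEP was lower in S than in LL in that ecotype. Its S libraries were widely spread, from 64.6 to 189.7 CPM at ZT8 in Bd21-3. The less abundant match Bradi1g76870, with a highest group mean of 18.2 CPM, did not pass in any comparison, and its log2FC was −1.86 and −1.90 at ZT8 and ZT20 in Bd21-3.

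VDE (Bradi5g07390), the enzyme that reverses ZEP, showed another day course. At ZT0 submerged Bd21 had 88.1 ± 18.5 CPM and its LL control 82.1 ± 11.2 CPM (SD, n = 3), with overlap. At ZT16, ZT20 and ZT24 it fell in both ecotypes. Its S libraries were at 11.9 to 17.7 CPM at ZT16 in Bd21, where LL had 71.4 to 84.9 (log2FC −2.32, limma adjusted p = 1.5e-22). At ZT20 the log2FC was −3.22 in Bd21 and −3.37 in Bd21-3, and at this ZT ZEP was higher in S than in LL. In the Bd21 controls the group means of VDE over the day ran from 48.6 CPM at ZT8 to 82.1 CPM at ZT0 in LL, and from 86.1 CPM at ZT8 to 125.0 CPM at ZT20 in NG. PSBS (Bradi2g56260), the photosystem II protein needed for rapid heat dissipation, fell at 4 ZTs in Bd21 and at all 5 in Bd21-3, furthest at ZT20 with log2FC of −5.28 and −6.27. ABA4 (Bradi2g01990), needed for neoxanthin, did not pass at any ZT and had log2FC of −0.18 to −1.31.

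**Figure D4:**
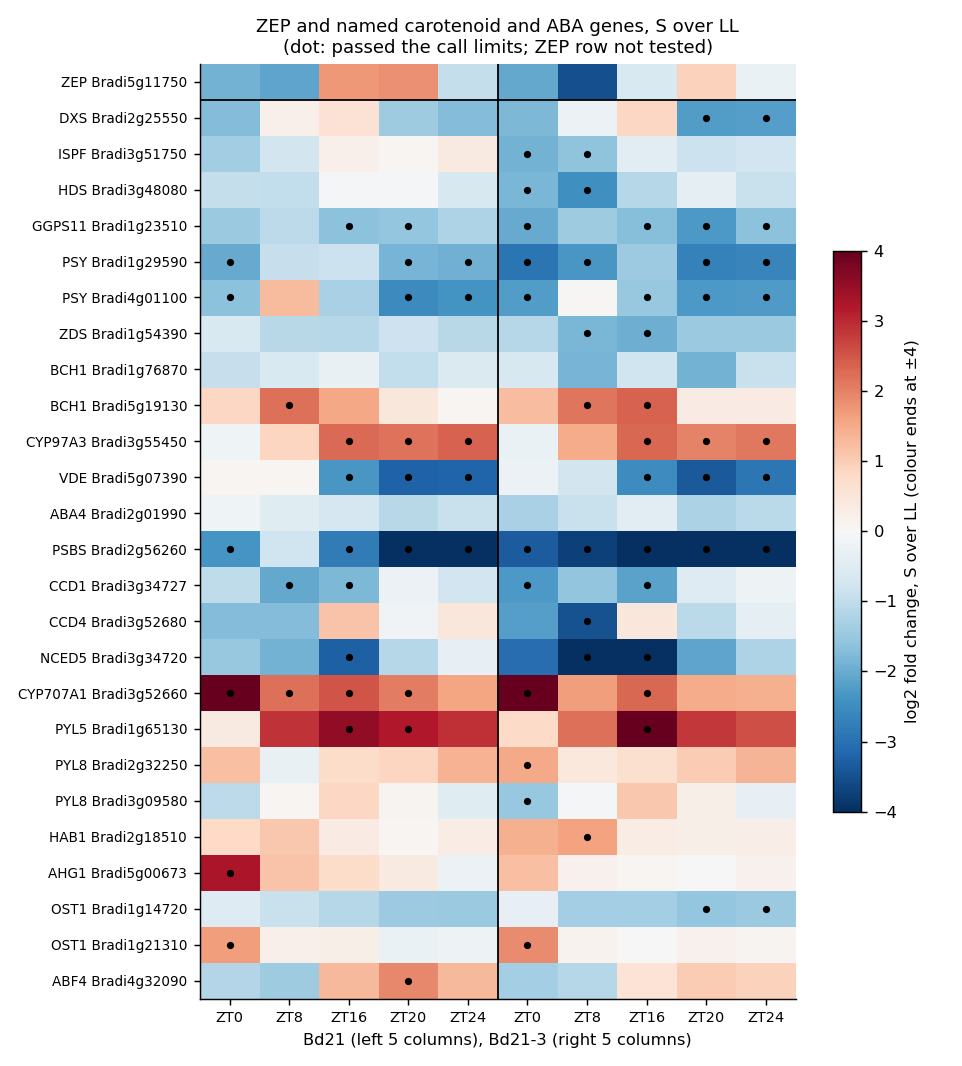
Log2 fold change of S over LL at 5 ZTs in Bd21 (left columns) and Bd21-3 (right columns) for ZEP (top row, not tested) and the named genes of the lists; colour gives the value and dots mark differences that passed the limits. ZEP changes sign between ZT8 and ZT16 in Bd21 (−2.11 and 1.73), VDE and PSBS are low in S at ZT16 to ZT24, and CYP97A3 and CYP707A1 are high.

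Downstream of ZEP, 10 genes of ABA synthesis were tested and 1 fell in each ecotype. This was near the share of all genes that fell at 1 or more ZT (8.42% in Bd21 and 9.95% in Bd21-3). The gene that fell was NCED5 (Bradi3g34720), which cleaves violaxanthin or neoxanthin on the way to ABA. It was at 0.855 ± 0.451 CPM in S and 17.6 ± 7.88 in LL at ZT16 in Bd21 (SD, n = 3; log2FC −3.28, limma adjusted p = 2.7e-16) and at 0.136 ± 0.158 and 17.3 ± 0.752 CPM in Bd21-3 (log2FC −4.02). Its levels in S rest on few reads, so these fold changes depend on the pseudocount of 1. NCED5 was low in S at every ZT, with group means of at most 1.705 CPM in Bd21 and 0.784 CPM in Bd21-3. These ZTs include ZT16, at which ZEP was above LL in submerged Bd21 and below LL in submerged Bd21-3. Of the enzymes that break carotenoids down, the CCD1 match Bradi3g34727 fell in both ecotypes, with a highest group mean of 98.8 CPM. The more abundant CCD1 match Bradi4g00330, with a highest group mean of 591.9 CPM, did not pass in any comparison. CCD4 (Bradi3g52680) fell at ZT8 in Bd21-3 (log2FC −3.49). Bradi3g34727 and NCED5 carry neighbouring gene numbers, and reads shared between them could not be told apart here. CYP707A1 (Bradi3g52660), which inactivates ABA, rose at 4 ZTs in Bd21 and 2 in Bd21-3, most at ZT0, when submerged Bd21 had 476.0 ± 122.0 CPM against 20.96 ± 2.74 for its LL control, and Bd21-3 had 407.3 ± 78.8 against 21.1 ± 2.83 CPM (SD, n = 3). Its log2FC there was 4.42 and 4.20 (limma adjusted p = 1.7e-18 and 9.3e-18).

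In ABA signalling the lists are small, and their counts are given beside the shares of all genes. At 1 or more ZT, 7.03% of all genes rose and 8.42% fell in Bd21. In Bd21-3, 7.5% rose and 9.95% fell. Of 9 receptor genes, 1 rose in Bd21, and 2 rose and 1 fell in Bd21-3. PYL5 (Bradi1g65130) was at 214.4 ± 34.0 CPM in S and 2.07 ± 1.82 in LL at ZT16 in Bd21-3 (SD, n = 3; log2FC 6.28, limma adjusted p = 1.1e-15) and at 63.6 ± 15.6 and 5.43 ± 3.71 CPM in Bd21 (log2FC 3.54). The PYL8 matches moved apart at ZT0 in Bd21-3, where Bradi2g32250 rose (log2FC 1.53) and Bradi3g09580 fell (−1.51). Of 7 phosphatases that hold the pathway off, AHG1 (Bradi5g00673) rose in Bd21 at ZT0 and HAB1 (Bradi2g18510) in Bd21-3 at ZT8. The AHG1 mean in S was just over the 15 CPM limit, at 15.86 ± 11.7 CPM (SD, n = 3). Its S libraries ran from 2.577 to 24.72 CPM, and its LL mean was 0.3221 CPM. Of 12 kinase and transcription factor genes, OST1 (Bradi1g21310), a kinase match, rose at ZT0 in both ecotypes, Bradi1g14720 of the same match fell at ZT20 and ZT24 in Bd21-3, and ABF4 (Bradi4g32090) rose in Bd21 at ZT20. None of the 4 ABA-responsive genes reached 15 CPM in any group.

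Low light alone moved few of these genes. In LL over NG, 2 of the 80 rose in Bd21 (2.5%, beside 1.12% of all genes) and 3 fell (3.75%, beside 1.31%), and in Bd21-3, 1 rose (1.25%, beside 1.12%) and 4 fell (5.0%, beside 1.58%). NCED5 (Bradi3g34720) fell in both, for example at ZT20 in Bd21, from 30.5 ± 0.875 CPM in NG to 2.05 ± 1.25 in LL (SD, n = 3; log2FC −3.45, limma adjusted p = 1.4e-15). CCD1 (Bradi3g34727) and ISPF (Bradi3g51750) also fell in both ecotypes, BCH1 (Bradi5g19130) fell in Bd21-3, and CYP97A3 (Bradi3g55450) rose in Bd21 at ZT8. PYL6 (Bradi1g64920), a receptor match that was named after its values were seen, rose in both ecotypes.

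The genes whose pattern was most like that of ZEP were antenna genes of photosystem II. Likeness was Pearson's r of log2(CPM + 1) over the 30 group means, computed for 14852 genes with 15 CPM in some group or more, and is given as a description. The points share libraries, scaling and the time of day. The highest values were those of the LHCB1 match Bradi4g37210 (r = 0.935, Spearman's rho 0.931) and the LHCB2 match Bradi1g15290 (r = 0.93). A further LHCB1 match, Bradi2g16290, had r = 0.915. Between them stood Bradi3g42618 (r = 0.917), which had no Arabidopsis match, and Bradi4g37220 (r = 0.916), a lectin receptor kinase match numbered next to Bradi4g37210. Only 10 genes exceeded 0.9, and the median over all genes compared was −0.02. LHCB genes are a family of close copies, and reads that fit several copies or overlap a neighbour may have been split among them. Bradi4g37210 and Bradi2g16290 also belong to the green leaf genes summed above.

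Within each treatment r was also computed, over 10 of the same group means. These values are not independent of how the gene was picked. For Bradi4g37210 r was 0.913 in S, 0.97 in LL and 0.967 in NG. This antenna gene had its zenith at ZT8 in controls, with 10370 ± 1190 CPM in Bd21 NG and 14050 ± 2100 CPM in Bd21-3 NG (SD, n = 3). In S its zenith was ZT16, with 2948 ± 1190 CPM in Bd21 and 1238 ± 106 CPM in Bd21-3 (SD, n = 3). Like ZEP, it was therefore at its daily maximum at dusk in submerged plants and was higher in Bd21 there, although its libraries ranged widely. Of the pathway genes, HDR (r = 0.806), an enzyme of isoprenoid supply named here after its values were seen, CCD4 (0.803) and HDS (0.737) came closest to ZEP. VDE had r = 0.141 over all groups, and its r was −0.222 within S, −0.415 within LL and −0.725 within NG. At the other end, HAB1 had r = −0.678 among the pathway genes.

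**Figure D5:**
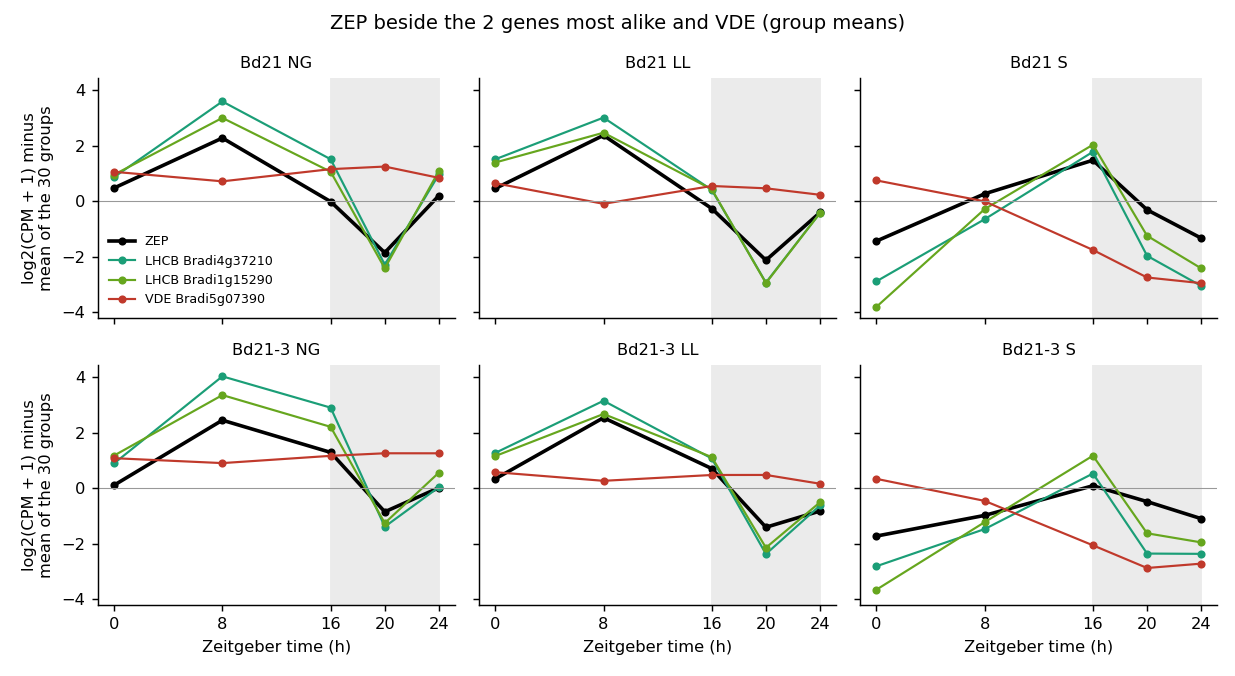
Day courses of ZEP, the 2 most alike genes (LHCB matches) and VDE in each ecotype and treatment, as log2(CPM + 1) of group means minus the mean over the 30 groups; the night is shaded. ZEP and both LHCB genes are highest at ZT8 in NG and LL and at ZT16 in S, whereas VDE is high at ZT0 in S and low from ZT16 on.

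Over all genes, the lowest r with ZEP were those of Bradi2g46850 (−0.809), an F-box protein match, Bradi5g15070 (−0.796), a receptor kinase match, and Bradi2g46845 (−0.768), which had no match.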

How the data were processed

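RNA-seq libraries were made by the study with a TruSeq RNA kit. According to the submitters' processing notes and the study's methods, reads were aligned with HISAT2 2.1.0 to the JGI version 3 assembly of *B. distachyon*, runs of a library were merged with SAMtools 1.12, poorly aligned libraries were discarded, genes were counted with HTSeq and CPM came from edgeR. The use of strand in counting is not given in the sources used here. The deposited table holds, per gene and library, a normalized coverage signal on a CPM scale made by the authors. The sums of 843958 to 1243716 per library showed that it was not plain CPM, as had been planned for, but CPM after library scaling. All values (100%, within 0.001 of a read) were whole multiples of what 1 read is worth (0.0608 to 0.261 CPM), so reads were recovered for edgeR. The table also holds columns of the authors' fold changes and adjusted p-values, which were not used.

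ZEP and the lists were chosen with earlier results of these data known. Genes that reached 1 CPM in fewer than 3 libraries were left out, and log2(CPM + 1) of the other 24109 was fitted with limma 3.58.1 (R 4.3.3, trend), with 1 term per group over all 89 libraries, so that all groups share 1 estimate of the spread, and Benjamini-Hochberg adjustment over all genes. S over LL, LL over NG and Bd21 over Bd21-3 in NG were compared at each ZT. Named were ZEP, all matches of the steps next to it with 15 CPM in some group, up to 4 called members of each list with the largest mean change, and the 5 genes most like and 3 least like ZEP. Gene names are best Arabidopsis matches given in the table (19689 genes). None of the identifiers (0) was found in the RefSeq table, so no sequence or position is printed. Alternatives were other pseudocounts, filters, scalings and call limits, NG as the control, only the groups compared, a replicate block, each library left out, and edgeR 4.0.16 on the recovered reads. Scripts were tested on simulated data, and Python 3.11.15 drew the figures. No replicates were duplicates: pairs of a group differed by 2.69 times or more of the sampling noise (chi-square per degree of freedom, 88 pairs).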

Additional observations from a re-analysis of the deposited data

Results flagged for a closer look

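ZEP at ZT16 (dusk) went opposite ways in the ecotypes. In Bd21 all S libraries (254.7 to 339.9 CPM) lay above all LL libraries (81.8 to 92.7 CPM), and in Bd21-3 all S libraries (108.8 to 111.3 CPM) lay below all LL libraries (160.6 to 182.4 CPM). The log2FC of S over LL was higher in Bd21 by 2.35 (standard error 0.19). The difference was not tested, since ZEP had been chosen for such levels. The summed low oxygen genes were 1827 to 6169 CPM in Bd21 S and 4767 to 6952 CPM in Bd21-3 S at this ZT, and their part was not tested.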

How the results depend on the processing

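Besides the values as reported, 183 values of 19 results were computed under other settings, and 172 of them kept their direction and side of the limits or moved by no more than the SD between libraries of ZEP (0.17, log2). With quantile scaling the log2FC of ZEP in S over LL was 1.56 in Bd21 at ZT16 and 0.73 in Bd21-3 at ZT20, against 1.73 and 0.91. With a pseudocount of 5, 5 listed genes fell in Bd21 in place of 8. With a log2FC limit of 1, 14 rose and 18 fell in Bd21, and 11 rose and 25 fell in Bd21-3. With NG as the control, 13 fell in Bd21 and 24 in Bd21-3. Shares of all genes are not given for these settings or the next, so whether the counts exceed such shares was not tested. With only the 2 groups of each comparison in the limma fit, 1 rose and 1 fell in Bd21, and 0 rose and 1 fell in Bd21-3, where 9 rose at an unadjusted p under 0.05 with the same fold and level, and where edgeR over all groups called 8. The cause was not tested.

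The replicate numbers did not pair the libraries: same-numbered libraries of compared groups had deviations correlated by −0.66 to 0.44 (median −0.04), 9 of 44 pairs were over 0.1 and 14 of 44 correlated best with their own number. The replicate block moved none of the 19 results past these bounds. Each replicate number occurs once in every group but Bd21 LL at ZT24, so the block cannot change log2FC between the other groups. The log2FC of ZEP in NG at ZT16 thus stayed at −1.29 by design, which is no check of it.

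Leaving out each library in turn moved no log2FC of ZEP in S over LL by over that SD and no count by over 1.5 times, although single listed genes were gained or lost. The ecotype differences in NG kept their direction and their side of the limits, the one at ZT16 reaching −1.49 without replicate 2 of Bd21-3 NG. The genes that fell then numbered 7 to 9 in Bd21 and 17 to 20 in Bd21-3, and those that rose 6 to 8 in each. The log2FC of ZEP in S over LL lay within 1.61 to 1.82 in Bd21 at ZT16 and −0.66 to −0.56 in Bd21-3, and the ecotype difference in NG within −1.49 to −1.17 at ZT16 and −1.13 to −0.88 at ZT20.

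The shallowest ZEP value rested on 147 reads. Levels of NCED5 in S rest on few reads.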
